A study of Homo sapiens with 4 samples.

Results

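The TERT and CLPTM1L locus was examined in genome-wide maps of TEAD4 binding made by chromatin immunoprecipitation followed by sequencing (ChIP-seq). Its members were chosen by position, as every TEAD4 peak of chromosome 5 whose midpoint lay between 1100000 and 1500000 on hg19. There were 7 such peaks among 51017, with 5 of 39477 in MKN28 and 2 of 11540 in SNU216. The locus was selected on earlier results of the same peak lists, so the positions, scores and widths below are a description and carry no test.

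MKN28 and SNU216 are human gastric cancer cell lines, for which the labels name no treatment and no genotype change. Each gave 1 library precipitated with a TEAD4 antibody and 1 input library made without antibody. Each TEAD4 library was called by the authors against the input of the same line, which left 1 peak list per line, no replicates and no spread between cultures. The lists give no read counts, so their depth is unknown. Each peak has a position and the authors' score from the peak caller MACS, which is used here to describe and rank peaks within a list. Where scores of partner peaks are set side by side, they describe this pair of libraries only. The scores reached 3170 in MKN28 and 3117 in SNU216, and the lowest were close to 50 in both lists.

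TEAD4 is a DNA-binding protein of the TEAD family, which brings YAP and TAZ, the co-activators controlled by Hippo signalling, to enhancers and promoters of growth genes. TERT encodes the catalytic reverse transcriptase of telomerase, the enzyme that extends chromosome ends. It is silent in most adult tissues and active in most cancers. CLPTM1L, also known as CRR9, encodes a membrane protein first described in cells resistant to cisplatin. The 2 genes are neighbours at 5p15.33, near the end of the short arm, and common variants around them have been linked to the risk of several cancers.

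Within the locus, TEAD4 peaks were called inside the body of CLPTM1L in both lines and inside the body of TERT in neither. The CLPTM1L site was among the strongest and widest in MKN28. In SNU216 it was among the widest and within the top 2.18% by score. In MKN28 it was 3044 bp wide with a score of 3100, and in SNU216 it was 2046 bp wide with a score of 673.6. The other peaks all lay on the telomeric side of TERT, with scores of 62.5 to 315.2 in MKN28 and 61.4 in SNU216. A second site, 134 kb from the TERT start, was also called in both lines.

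**Figure D1:**
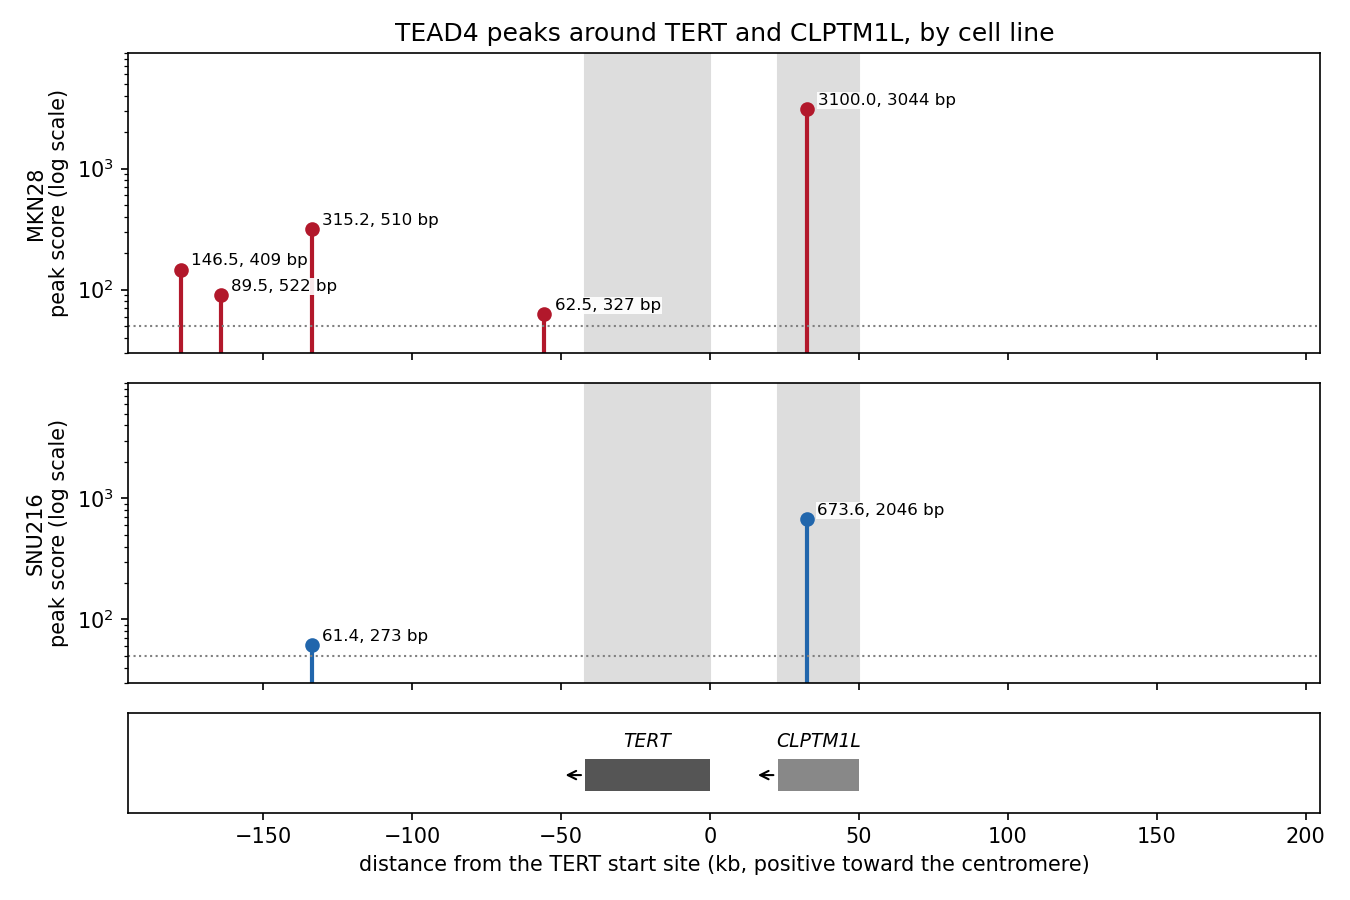
TEAD4 peaks of the locus in MKN28 (top) and SNU216 (middle), as score on a log axis against the distance of the peak midpoint from the TERT start in kb. Each point is 1 peak with its score and width, lines drop to the axis, the dotted line marks a score of 50, grey bands are the bodies of TERT and CLPTM1L, and arrows show the direction of transcription. The highest point of both lists, 3100 in MKN28 and 673.6 in SNU216, lies in the CLPTM1L body.

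TERT itself held no called TEAD4 peak. Its body runs from 1253287 to 1295162 on chromosome 5, a stretch of 41.9 kb. The gene is transcribed from the minus strand, so that its start is the end of the interval nearer to the centromere. No MKN28 or SNU216 peak had a base in that body. The peak nearest to the TERT start began 31.1 kb upstream of it in MKN28 and 31.5 kb upstream in SNU216, and in both lists it was the CLPTM1L site. On the other side, the nearest peak ended 13.5 kb beyond the 3′ end of TERT in MKN28 and 91.7 kb beyond it in SNU216. Binding too weak to pass the authors' threshold would leave no peak, so a stretch without one may still be bound.

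The stretch without peaks across TERT was not unusual for either list. It measured 86.5 kb in MKN28, where the median gap between neighbouring peaks was 25.9 kb and 21.3% of 39453 gaps were at least as long. It measured 165 kb in SNU216, where the median gap was 79.9 kb and 34.7% of 11516 gaps were at least as long. Of all windows as long as the TERT body, 67.7% held no MKN28 peak and 88.1% no SNU216 peak. Inside 400 kb windows with as many peaks as the locus, these shares were 61.7% in MKN28 and 81.6% in SNU216.

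CLPTM1L, at 1317869 to 1345180 and also on the minus strand, held 1 peak in each list. The MKN28 peak ran from 1326270 to 1329313 and the SNU216 peak from 1326669 to 1328714. The SNU216 peak lay wholly within the MKN28 peak and took up 67.2% of it, and the midpoints were 100 bp apart. The peaks were inside the gene, away from its promoter. Their midpoints lay 17.4 kb from the 5′ end of CLPTM1L in MKN28 and 17.5 kb in SNU216. They lay 9.92 kb from its 3′ end in MKN28 and 9.82 kb in SNU216. The MKN28 peak covered 11.1% of the gene body and the SNU216 peak 7.49%. Exons and introns on hg19 were not used here, so the peak is placed in the body only. The 22.7 kb between the 2 genes held no peak in either list, and neither did the 155 kb from CLPTM1L to the centromeric bound of the locus.

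The CLPTM1L site stood near the top of both lists by score. In MKN28, 16 of 39477 peaks (0.0405%) scored 3100 or more, and 10 of these scored exactly 3100, the CLPTM1L peak among them. Values pile up at that score, so these 16 peaks were not ordered by strength. No other MKN28 peak of chromosome 5, of 1988 in all, reached 3100. In SNU216 the CLPTM1L peak ranked 251 of 11540 by score, or within the top 2.18%, and 10 of 602 on chromosome 5. The medians of the whole lists were 99.8 in MKN28 and 84.7 in SNU216.

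The site was also wide in both lines, more so than the median peak of like score. The median width over all peaks was 525 bp in MKN28 and 408 bp in SNU216. Width rises with score, so each list was divided by score rank into 50 groups of equal size and each peak was set against its group. The CLPTM1L peak was 3.60 times as wide as the median of 789 MKN28 peaks of like score (846 bp), whose scores ran from 1004 to 3170, and 1 other peak of that group was at least as wide. It was 3.21 times as wide as the median of 231 SNU216 peaks of like score (637 bp), and no other peak of that group was as wide. The MKN28 score of the site sits where values pile up, so MKN28 peaks of like score may differ in strength. Among the 16 MKN28 peaks at 3100 or more, the CLPTM1L peak was the widest. The next, on chromosome 3 at 134045465 to 134047455, was 1991 bp wide, and the median of the 16 was 957 bp.

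**Figure D2:**
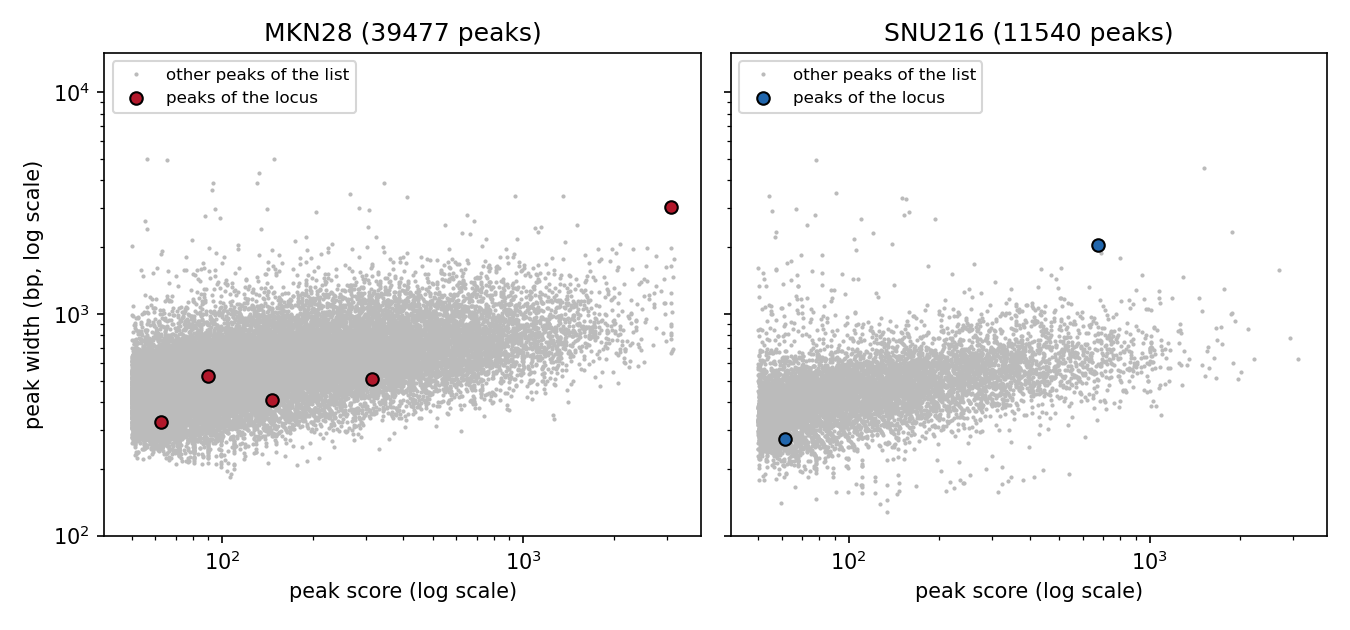
Peak width in bp against peak score, both on log axes, for all peaks of MKN28 (left) and SNU216 (right), with the peaks of the locus as large points. The CLPTM1L peak, 3044 bp wide at a score of 3100 in MKN28 and 2046 bp wide at 673.6 in SNU216, lies above the cloud of peaks of like score, and the other locus peaks lie inside it.

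Most other peaks of that width had lower scores. In MKN28, 12 other peaks were at least 3044 bp wide, with a median score of 141 and a range of 56.1 to 1361. Of these, 7 were on chromosome 22. Within 1 Mb of a centromere band lay 3, some of which were also on chromosome 22. An SNU216 peak overlapped 4 of the 12, against 17.1% of all MKN28 peaks. In SNU216, 20 other peaks were at least 2046 bp wide, with a median score of 107 and a range of 54.5 to 1884, and 2 of them scored at least as high as the CLPTM1L peak. Of the 20, 11 lay within 1 Mb of a centromere band, among them all 5 on chromosome 4. An MKN28 peak overlapped 3 of the 20, against 59.3% of all SNU216 peaks. Only 2 sites of the lists reached both widths, 3044 bp in MKN28 and 2046 bp in SNU216. They were the CLPTM1L site and a site beside the centromere of chromosome 6, at 58775300 to 58780230 in MKN28, with a score of 65.7 in MKN28 and 1514 in SNU216. The CLPTM1L site was not within 1 Mb of a centromere band or of the chromosome end. Its MKN28 peak began at 1326270, not far beyond that distance from the end. None of the other wide peaks lay within 1 Mb of a chromosome end either. The lists hold neither summits nor reads, and the cause of the width of the CLPTM1L peak was not tested.

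The 4 peaks of MKN28 on the telomeric side of TERT were narrower and lower in score than the CLPTM1L peak, and 2 of them scored above the median of the list. The peak farthest from TERT, at 1117446 to 1117854, was 409 bp wide, scored 146.5 and ranked 13535 of 39477, and 78.3% of the list was at least as wide. The next, at 1130638 to 1131159, was 522 bp wide, scored 89.5 and ranked 21779. The third, at 1161215 to 1161724, was 510 bp wide, scored 315.2 and ranked 5868, within the top 14.9% of the list. It was the second strongest MKN28 peak of the locus and the strongest on this side of TERT. The peak nearest to TERT, at 1239441 to 1239767, was 327 bp wide, scored 62.5 and ranked 30943, and 93.8% of the list was at least as wide. These 4 peaks were 0.705, 1.06, 0.763 and 0.730 times the median width at their own scores in MKN28. The excess width of the CLPTM1L peak was thus not seen in its MKN28 neighbours.

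In SNU216 this side held 1 peak, at 1161333 to 1161605. It was 273 bp wide, scored 61.4 and ranked 8545 of 11540, and was 0.805 times the median width at its own score in SNU216. It lay wholly inside the third MKN28 peak, with midpoints 0.5 bp apart, and took up 53.5% of it. Within the locus, the CLPTM1L peak was therefore the strong site in both lists and the 134 kb site a weaker one, as the map of the locus shows. In the RefSeq gene order, which was used for names only because its build is GRCh38, TERT follows the amino acid transporter genes SLC6A19 and SLC6A18. The microRNA gene MIR4457 lies between TERT and CLPTM1L, and the dopamine transporter gene SLC6A3 and the phospholipid enzyme gene LPCAT1 follow. No peak was assigned to any of these.

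Of the peaks of the locus, 2 of 5 in MKN28 and 2 of 2 in SNU216 were called in the other line as well. The MKN28 count corresponds to 40% with an exact 95% Clopper-Pearson interval of 5.27 to 85.3%, which holds the share over the whole MKN28 list, 17.1% of 39477. For SNU216, 2 of 2 gives an interval of 15.8 to 100%, and the share over that list was 59.3% of 11540. With 2 peaks the interval holds that share whatever the count, so it decides nothing. With so few peaks, the counts cannot tell whether the locus differs from the lists. Overlap goes with score, and the peaks of like score give a closer comparison. Among MKN28 peaks of like score, an SNU216 peak was found for 67.9% in the group of the CLPTM1L peak, which spans scores of 1004 to 3170, and for 28.4% in the group of the 134 kb site. Among the MKN28 peaks at 3100 or more, 14 of 16 had one. For the 3 MKN28 peaks with no SNU216 counterpart, the shares in their groups were 18.1%, 9.11% and 6.21%, in order of falling score. Among SNU216 peaks of like score, 94.8% had an MKN28 peak in the group of the CLPTM1L peak and 41.6% in the group of the other.

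**Figure D3:**
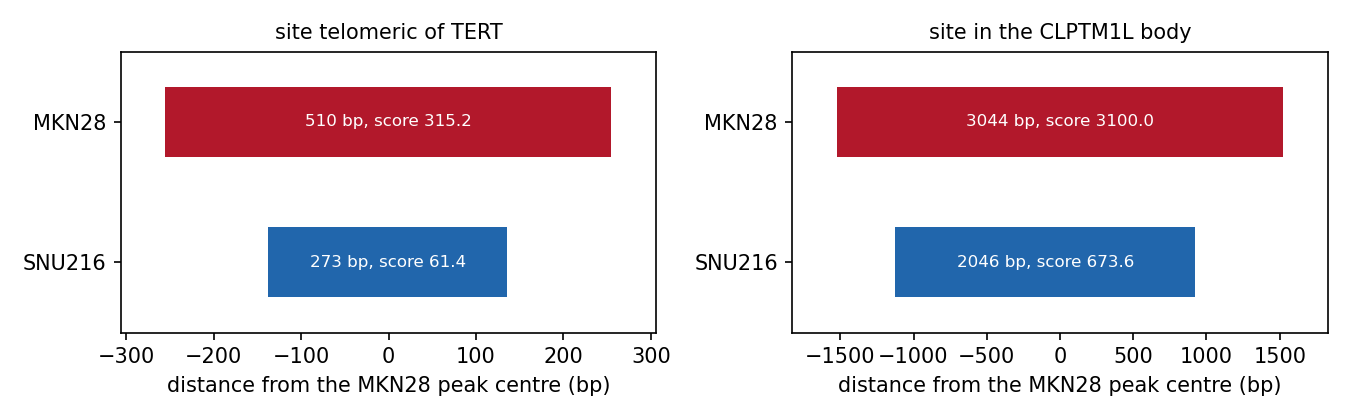
Extent of the 2 sites of the locus called in both lines, in bp from the centre of the MKN28 peak, with MKN28 above SNU216 and each bar 1 peak. The SNU216 peak lies inside the MKN28 peak at both sites, 273 bp inside 510 bp (left) and 2046 bp inside 3044 bp (right).

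The authors' scores at both sites were higher in MKN28 than in SNU216. The MKN28 score was 4.60 times the SNU216 score at the CLPTM1L site and 5.13 times at the 134 kb site. Across all 6841 SNU216 peaks with an MKN28 counterpart, the median of this ratio was 1.77, with quartiles of 1.01 and 3.30. The ratio was higher than at the 134 kb site in 13.9% of these pairs, which were not matched by score. The score depends on library depth and input depth, which are unknown. The MKN28 score of the CLPTM1L peak sits where values pile up, so its ratio was not ranked among the pairs and is not a measure of fold binding. Widths differed in the same direction, at 1.49 times in MKN28 over SNU216 for the CLPTM1L site and 1.87 times for the other. The median widths over all peaks, 525 bp in MKN28 and 408 bp in SNU216, differed in that direction too.

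**Figure D4:**
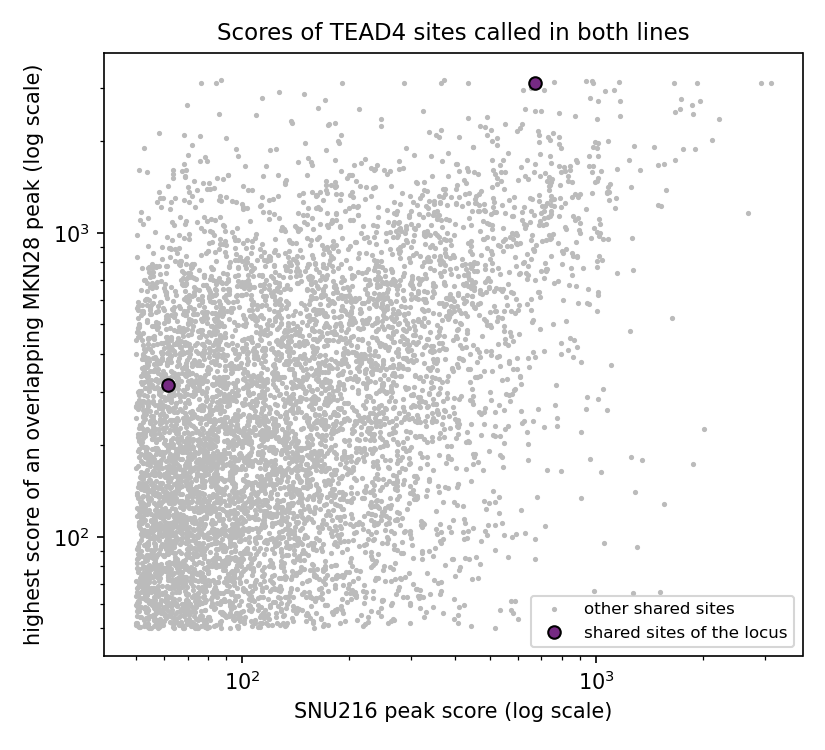
Score of each SNU216 peak that overlaps an MKN28 peak (horizontal) against the highest score of an MKN28 peak overlapping it (vertical), both on log axes, with 6841 pairs and the 2 pairs of the locus as large points. The CLPTM1L pair, at 3100 in MKN28 and 673.6 in SNU216, lies in the row where MKN28 scores pile up, and the other pair lies at 315.2 in MKN28 and 61.4 in SNU216.

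The SNU216 side of the strongest MKN28 sites differed widely. Of the 16 MKN28 peaks at 3100 or more, 14 overlapped an SNU216 peak, and the SNU216 scores ran from 84.3 to 3117 with a median of 956. The SNU216 score at CLPTM1L, 673.6, was exceeded at 9 of these sites and was higher than at 4. Among the 14 sites with an SNU216 peak, the CLPTM1L site was therefore in the lower part by SNU216 score. The rest of the 16 had no SNU216 peak. In MKN28 the CLPTM1L peak was the widest of the 16.

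The number of peaks in the locus was in the middle range. Of 7578 windows of 400 kb that tile chromosomes 1 to 22 and X, 57.1% held fewer MKN28 peaks than the 5 of the locus, 5.93% held as many and 37.0% held more. The median window held 3 MKN28 peaks and the fullest 39. For SNU216, 66.5% of windows held fewer than the 2 peaks of the locus, 11.9% held as many and 21.7% held more, with a median of 1 and a maximum of 26. Its strongest peak was less common than its count of peaks. A peak of 3100 or more was found in 16 of the 7578 windows for MKN28 (0.211%), and an SNU216 peak of 673.6 or more in 224 (2.96%).

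**Figure D5:**
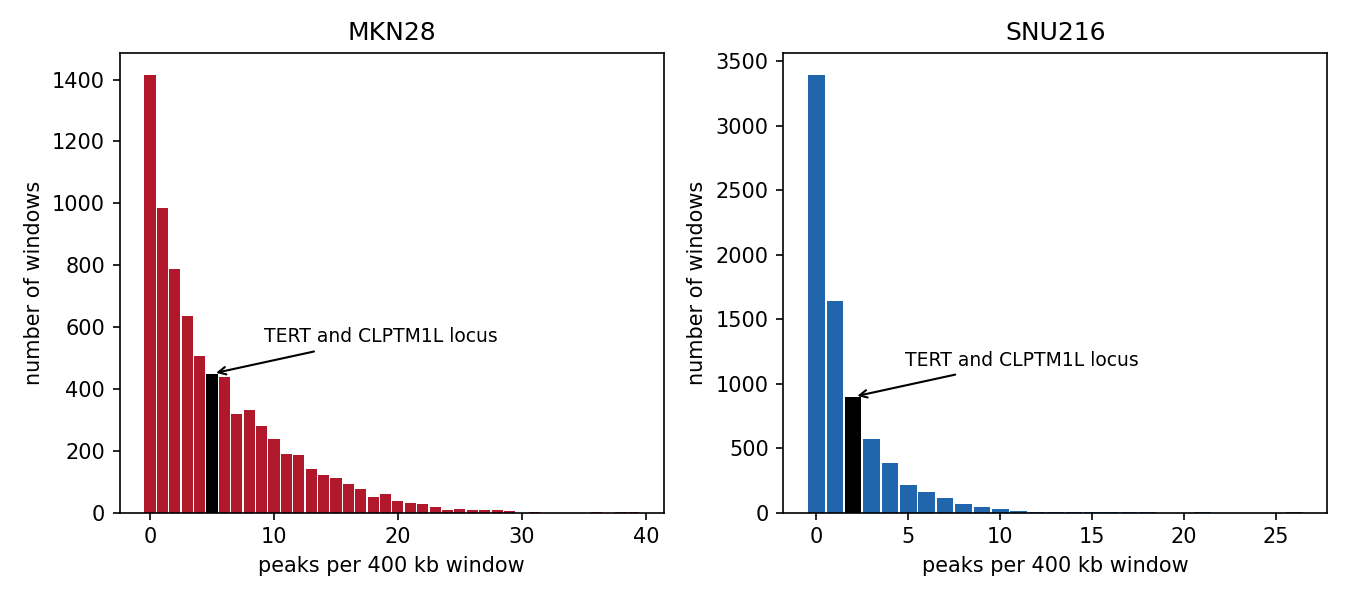
Number of 400 kb windows against the number of TEAD4 peaks per window in MKN28 (left) and SNU216 (right), with the bar that matches the count of the locus in black. The locus, with 5 MKN28 and 2 SNU216 peaks, lies above the median window, 3 in MKN28 and 1 in SNU216, and far below the fullest, 39 in MKN28 and 26 in SNU216.

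The CLPTM1L peak lay farther from its nearest neighbour than most peaks of its list. Its nearest neighbour in the same list was 86.5 kb away in MKN28 and 165 kb away in SNU216. These are the gaps across TERT, and 21.3% of MKN28 gaps and 34.7% of SNU216 gaps were at least as long. Among the 797 MKN28 peaks with a score of at least 1000, 32 (4.02%) were as far or farther from their nearest neighbour. Over all MKN28 peaks the share was 8.38%, and over all SNU216 peaks 16.2% were at least 165 kb from their nearest neighbour. On the centromeric side, the next peak after CLPTM1L was 185 kb away in MKN28 and 227 kb away in SNU216.

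The bounds of the locus decided which peaks were counted. Just outside them, MKN28 had a peak of score 51.1 at 1050038 to 1050382, telomeric of the locus, and one of score 790.9 and 949 bp at 1514395 to 1515343 on the centromeric side. That second peak lay 14.9 kb beyond the bound and overlapped no SNU216 peak. SNU216 had peaks of score 95.6 at 956955 to 957308 and of score 74.3 at 1555372 to 1555833, the first of which overlapped an MKN28 peak. Over the whole band 5p15.33, which reaches from the chromosome end to 4500000, MKN28 had 62 peaks and SNU216 had 14, and 8 peaks of each list overlapped the other. That is 12.9% of the MKN28 peaks of the band, against 17.1% over the list, and 57.1% of the SNU216 peaks, against 59.3%. The CLPTM1L peak had the highest score of the band in MKN28. In SNU216 it came second to a peak of score 692.1.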

How the data were processed

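TEAD4 ChIP-seq was carried out in the gastric cancer cell lines MKN28 and SNU216, with 1 TEAD4 library and 1 input library each, and the inputs were not analysed here. Per the labels' protocols, chromatin fixed with formaldehyde was sheared by sonication, and gel-selected, PCR-amplified libraries were read on a Genome Analyzer. CASAVA 1.8, Bowtie2 2.0.0, MACS and the build hg19 appear in the submitters' processing notes. For MACS, the version, threshold and treatment of duplicates were not given in the sources used here. What the authors deposited is 1 peak list per TEAD4 library, not pooled, with a position and a score per peak, whose scale is not stated. A score of this kind rises with depth, which is unknown.

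Positions were converted to 1-based coordinates. Peaks were assigned by midpoint, gene bodies on hg19 came with the rule that chose the locus, and the exact bounds were 1100000 and 1500000. Peaks overlapped at 1 shared bp. Like-score groups were 50 per list. Windows of 400 kb used chromosome lengths and bands from circlize 0.4.16. Python 3.11.15, pandas 2.3.3 and scipy 1.17.1 were used, and the overlap, window and width steps were tested on simulated data with known answers. The members and the comparisons were chosen with earlier results of these data known. The named genes were TERT and CLPTM1L, given by that rule, and RefSeq neighbours (GRCh38.p14), all matched by symbol. No hg19 sequence was used, so no bases of a peak are shown. With 1 library per line there is no test between lines, and intervals cover counting error only. Alternatives are given in the closing section.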

Additional observations from a re-analysis of the deposited data

How the results depend on the processing

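The 2 shared sites of the locus were found with overlap of 50% of both peaks, midpoints within 200 bp, edges within 1 kb, and the 11540 highest-scoring MKN28 peaks. Over all peaks, the overlapping shares under these settings were 14.1%, 16.0%, 19.2% and 35.2% in MKN28, and 48.2%, 54.6%, 62.4% and 36.1% in SNU216. Limiting both lists to scores of 100 or more, 1 shared site was left in MKN28 and 1 in SNU216, both the CLPTM1L site, because the SNU216 peak of the other scored below 100. Over all peaks the shares were then 16.8% in MKN28 and 68.7% in SNU216. That threshold left 3 MKN28 peaks and 1 SNU216 peak in the locus, and the shortened MKN28 list left 2. Bounds moved out by 100 kb, a setting chosen after seeing the data, gave 10 MKN28 and 4 SNU216 peaks. Within the bounds of the locus there were 5 and 2. The stretch was longer with the moved bounds, and whether length alone gave the rise was not tested. The share of windows with fewer MKN28 peaks was 63.4% at a score of at least 100. With 20 groups by score, the relative widths of the MKN28 peaks from the telomere inward were 0.702, 1.05, 0.742, 0.735 and 3.81, and those of SNU216 were 0.815 and 3.20. Counting any base of a peak changed no count of the locus, the gene bodies or the stretches around them. Leaving out a replicate was not possible with 1 library per line. No paired analysis was possible because no group has a second sample to pair. Depth, which is unknown, limits what can be said of peaks called in MKN28 only.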
